A study of Mus musculus with 14 samples.

Results

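Fibroblast growth factor (FGF) signalling was described here through 33 genes of the mouse, taken by symbol from the 53465 genes of a raw count table. They are 18 secreted ligands, 4 intracellular FGF homologous factors, 4 receptors (Fgfr1 to Fgfr4) and 7 genes that the pathway switches on or that restrain it (Spry1 to Spry4, Dusp6, Etv4 and Etv5). All 33 symbols matched a gene of the table. The membership rule used names only and no measured value.

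The 14 polyA RNA-seq libraries come from wild type C57BL/6 embryos, with no treatment. Dorsal skin has 4 days (E9.5, then E10.5, then E12.5, and E14.5 last), once under titles starting with E and once under titles starting with ES, so each of the 8 skin groups is 1 library. The aorta-gonad-mesonephros region (AGM), known as a source of blood stem cells, has 3 ages (E9.5, then E10.5, and E11.5 last) in 2 rounds, which gives 2 libraries per age; by its label the E9.5 group is the caudal part of the embryo, para-aortic splanchnopleura included. The labels name no other allele or agent, and do not say how many embryos went into a library, so p-values measure the spread between these libraries, which may be technical. Second-round AGM columns carry a sample number but no age, and were given the age of the first-round library with that number, which is an assumption. Titles E and ES belong to different sequencing projects, as do skin and AGM, so title, tissue and project cannot be told apart.

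FGF ligands are secreted proteins that bind receptor tyrosine kinases at the cell surface, in most cases together with heparan sulphate. Active receptors drive the Ras and MAP kinase cascade, which induces the ETS transcription factors Etv4 and Etv5 and the inhibitors Dusp6, an ERK phosphatase, and the Sprouty proteins. In the embryo, ligands of the Fgf8 subfamily and Fgf4 are known from the tailbud and limb bud, Fgf10 and Fgf7 from mesenchyme that signals to epithelium through Fgfr2, and Fgf15 from neural tube and gut.

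Total counts were 19929352 to 24003912 in skin titled E, 6770338 to 15440012 in skin titled ES and 21527400 to 29534551 in AGM. Values are counts scaled by the library's total (CPM). In skin titled ES, marker genes of several skin cell types were near 0: embryonic red cell markers summed to 0.148 to 0.34 CPM against 2200 to 4790 in skin titled E, with Hbb-bh1 at 0, and endothelial markers to 18.9 to 39.0 CPM against 285 to 584. Epidermal markers there summed to 15.6 to 37.8 CPM against 45.7 to 3690, while macrophage markers summed to 107 to 281 CPM against 3.06 to 205 and dermal mesenchyme markers to 5360 to 7350 CPM against 583 to 19400. In AGM, the tailbud and presomitic mesoderm list summed to 252 and 131 CPM in the libraries labelled E11.5 and to 17.6 to 20.9 CPM in the other 4, and all 9 of its markers had counts there. The neural progenitor genes Pax6 and Sox1 stood at 57.9 and 67.3 CPM and at 48.0 and 41.5 CPM in the libraries labelled E11.5, and at 0.0677 to 2.29 CPM in the other AGM libraries. The kidney and gonad precursor gene Wt1 went the other way, with 78.0 to 117 CPM in the 4 libraries of the younger labels and 8.86 and 8.87 CPM in those labelled E11.5. The tailbud sum was thus highest under the label E11.5, while it is the label of the E9.5 group that names the caudal embryo. Whether the AGM ages are rightly labelled was not tested, and AGM ages are given below as labelled. In bulk tissue, fewer cells of a type and less RNA per cell cannot be told apart.

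**Figure D1:**
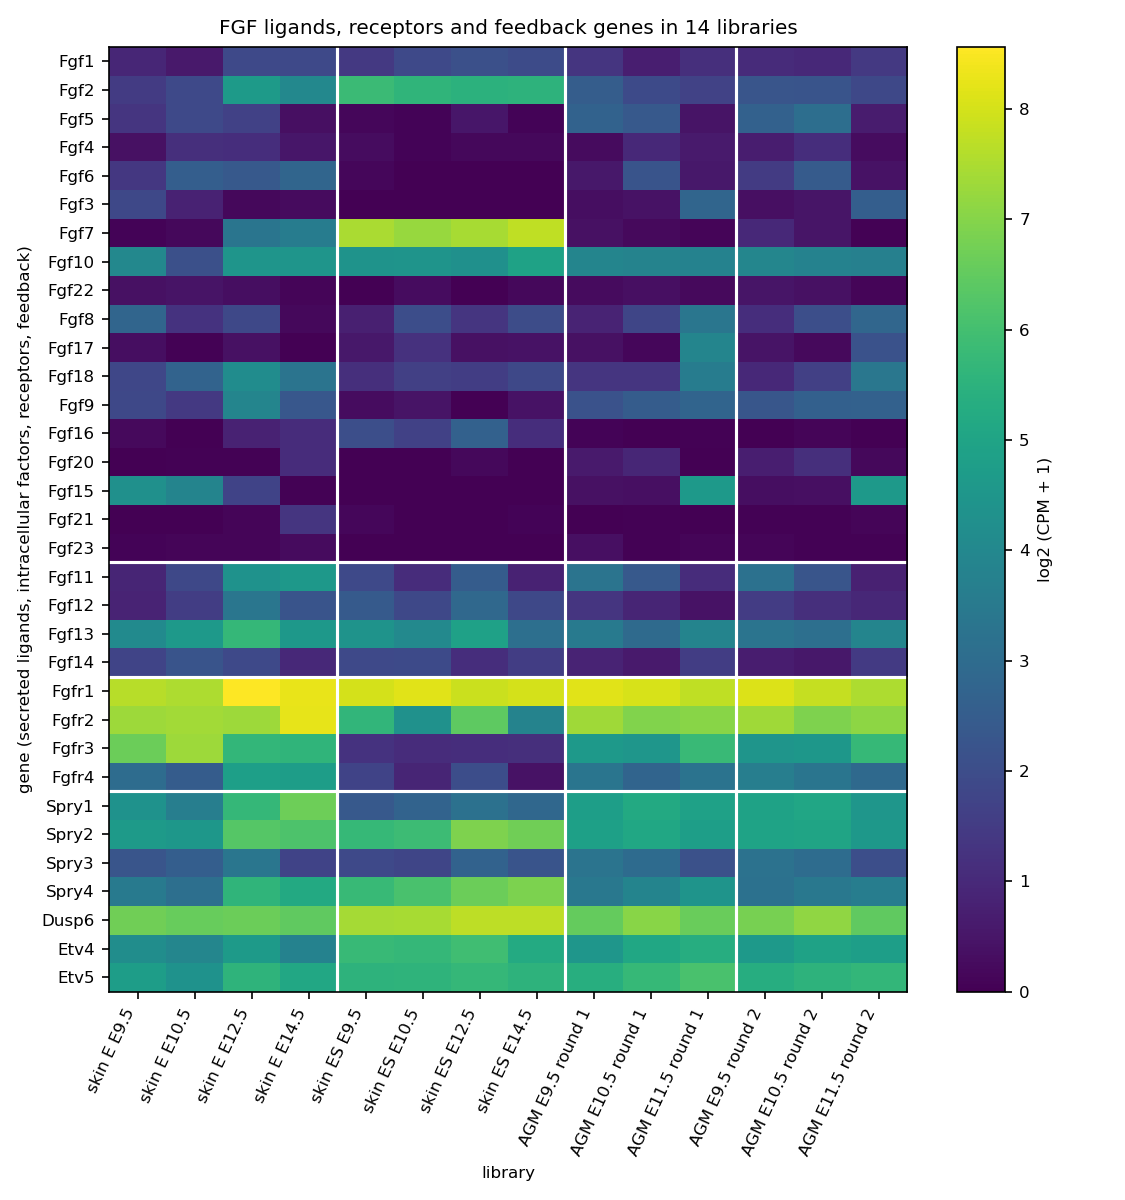
Expression of the 33 genes (rows, by role) in the 14 libraries (columns), as log2 of CPM + 1, with white lines between roles and between sets of libraries. Fgf7 is brightest in the 4 ES libraries, and Fgf3, Fgf15 and Fgf17 are brighter in the AGM libraries labelled E11.5 than in the other AGM libraries.

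Promoters of genes that moved in different directions are shown first, because the ETS factors Etv4 and Etv5 are themselves among the 33. RefSeq promoters (GRCm38.p6, the 250 bases before the annotated start) matched 23 of the 33 symbols. Fgf18 rose and Fgf5 fell in the AGM libraries labelled E11.5, Fgf7, Dusp6 and Spry2 were higher in skin titled ES than in skin titled E, and Spry1 was lower. Capitals mark the GC box GGGCGGG on either strand, the only searched motif found in these 6 windows.
Fgf18 (chr11:33147401-33147650, minus strand): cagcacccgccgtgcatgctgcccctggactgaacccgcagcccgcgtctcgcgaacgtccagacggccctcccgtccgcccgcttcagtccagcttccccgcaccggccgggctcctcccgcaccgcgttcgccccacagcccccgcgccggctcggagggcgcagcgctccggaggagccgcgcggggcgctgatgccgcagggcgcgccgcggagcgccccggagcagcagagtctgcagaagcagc
Fgf5 (chr5:98253934-98254183, plus strand): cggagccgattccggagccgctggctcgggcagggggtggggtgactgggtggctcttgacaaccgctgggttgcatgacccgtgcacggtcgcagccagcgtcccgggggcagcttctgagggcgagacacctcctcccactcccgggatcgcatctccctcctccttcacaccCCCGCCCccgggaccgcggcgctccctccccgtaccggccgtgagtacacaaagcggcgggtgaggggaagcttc
Fgf7 (chr2:126034408-126034657, plus strand): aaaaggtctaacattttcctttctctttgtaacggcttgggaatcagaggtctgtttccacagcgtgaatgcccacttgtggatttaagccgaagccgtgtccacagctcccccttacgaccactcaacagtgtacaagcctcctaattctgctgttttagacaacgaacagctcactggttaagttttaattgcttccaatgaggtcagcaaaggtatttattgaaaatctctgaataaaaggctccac
Dusp6 (chr10:99262981-99263230, plus strand): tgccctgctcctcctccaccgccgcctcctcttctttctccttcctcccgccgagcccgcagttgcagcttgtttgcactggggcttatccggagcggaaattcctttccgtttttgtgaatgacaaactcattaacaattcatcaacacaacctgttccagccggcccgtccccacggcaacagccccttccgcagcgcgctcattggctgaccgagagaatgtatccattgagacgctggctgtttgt
Spry2 (chr14:105896820-105897069, minus strand): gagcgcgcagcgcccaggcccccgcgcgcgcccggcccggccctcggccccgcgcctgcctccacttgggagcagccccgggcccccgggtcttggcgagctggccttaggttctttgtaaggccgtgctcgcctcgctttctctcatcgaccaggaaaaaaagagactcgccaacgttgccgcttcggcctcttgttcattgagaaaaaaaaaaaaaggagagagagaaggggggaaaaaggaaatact
Spry1 (chr3:37639697-37639946, plus strand): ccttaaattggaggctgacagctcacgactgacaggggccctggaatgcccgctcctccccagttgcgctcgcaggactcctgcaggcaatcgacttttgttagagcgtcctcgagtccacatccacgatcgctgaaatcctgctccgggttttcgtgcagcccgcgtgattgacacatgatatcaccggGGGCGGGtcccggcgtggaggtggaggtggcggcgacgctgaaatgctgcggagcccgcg
The GC box was found in 15 of the 31 promoters of the members searched, and in 23.4% of the 32851 mouse promoters of the same length. The ETS motif CCGGAAG, searched on both strands, was in none of the 31 and in 6.91% of all promoters. These are matches of letters only, in 1 window per start, and the motifs do not overlap each other.

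Across AGM ages the largest changes lay between the libraries labelled E11.5 and E10.5, and they ran through the ligands. Ligands of the Fgf8 subfamily (Fgf8, Fgf17 and Fgf18), Fgf3 and Fgf15 were higher in the libraries labelled E11.5, whereas Fgf5, Fgf6 and Fgf20 were lower. By edgeR's quasi-likelihood test with Benjamini-Hochberg adjustment over all genes, 14 of 28 tested members had an adjusted p under 0.05, 8 higher and 6 lower, where 27.2% of all tested genes did (11.8% higher and 15.4% lower). Of these, Fgf3, Fgf15 and Fgf17 entered the fit only through the label E11.5, where they are high. Their calls are therefore not independent of the low-count filter. The median log2 change of the tested members was 0.15, and 0.00 over all genes tested. Without a scaling factor on the library totals the split was 8 higher and 7 lower. With the sequencing round as a block, 22 members were called, where 48.2% of all tested genes were, and Fgf1, Fgf4, Fgfr1, Fgfr2, Spry1, Spry2, Spry4 and Etv5 were added.

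Fgf15, the mouse counterpart of human FGF19, stood at 0.305 and 0.247 CPM in the AGM libraries labelled E9.5, at 0.286 and 0.271 CPM in those labelled E10.5 and at 23.6 and 23 CPM in those labelled E11.5. Both libraries labelled E11.5 lay above the other 4, and the log2 change from the label E10.5 to E11.5 was 6.46 ± 0.21 (SE, n = 2 per group, edgeR adjusted p = 9.44e-06). Fgf3, a ligand of hindbrain, ear and tailbud, rose from 0.326 and 0.387 CPM to 5.92 and 4.88 CPM, which is 3.99 ± 0.29 on the log2 scale (edgeR adjusted p = 9.22e-05). Both genes lie on chromosome 7 in 1 cluster with Fgf4, on the same strand, with 2930 bases between the annotated Fgf3 and Fgf4 and 31287 between Fgf4 and Fgf15. Fgf4, placed between them, did not pass the test, at 0.979 and 1.16 CPM under the label E10.5 and 0.524 and 0.232 CPM under the label E11.5 (log2 change -1.37 ± 0.56, edgeR adjusted p = 0.107). With the round as a block its change was -1.35 and its adjusted p 0.0421, so that Fgf4 and its neighbours were called in opposite directions.

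Fgf17, a close relative of Fgf8, stood at 0.122 and 0.155 CPM under the label E10.5 and at 14 and 3.44 CPM under the label E11.5 (log2 change 6.03 ± 0.83, edgeR adjusted p = 0.00161). The rise was seen in both rounds, but the first round was far above the second. Fgf18 rose from 1.51 and 2.05 CPM to 11.1 and 9.52 CPM (2.62 ± 0.25, adjusted p = 0.000298). Fgf8 rose from 2.45 and 3.14 CPM to 9.23 and 6.09 CPM (1.55 ± 0.28, adjusted p = 0.00502). In these 3 genes, too, no library labelled E10.5 reached one labelled E11.5. The share of all genes without overlap, for these and for Fgf15, was not counted. The tailbud marker T stood at 43.1 CPM in the first and 20.2 CPM in the second of the libraries labelled E11.5, and at 11.7 to 12.4 CPM in the other AGM libraries. The first of the libraries labelled E11.5 was also above the second for Fgf3, Fgf8, Fgf15, Fgf17 and Fgf18. The part of these markers, and of the neural genes, in the ligands' rise was not tested.

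Fgf5, a ligand known for ending hair growth, fell from 4.28 and 7.51 CPM under the label E10.5 to 0.363 and 0.557 CPM under the label E11.5 (log2 change -3.59 ± 0.37, edgeR adjusted p = 0.000426). Fgf6, a ligand of developing muscle, fell from 3.63 and 4.49 CPM to 0.483 and 0.325 CPM (-3.21 ± 0.58, adjusted p = 0.00524). The muscle gene Myod1 went from 5.22 and 6.89 CPM to 0.0403 and 0.0929 CPM over the same libraries, and the sum of the muscle progenitor markers from 90.8 and 132 CPM to 60.9 and 72.9 CPM. Their part in the fall of Fgf6 was not tested. Fgf20 had 54 reads in the libraries labelled E10.5 and 3 in those labelled E11.5, a ratio of 16.6 (95% counting interval 5.38 to 82.9). Groups did not overlap for any of the 3, and the share of all genes without overlap was not counted.

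**Figure D2:**
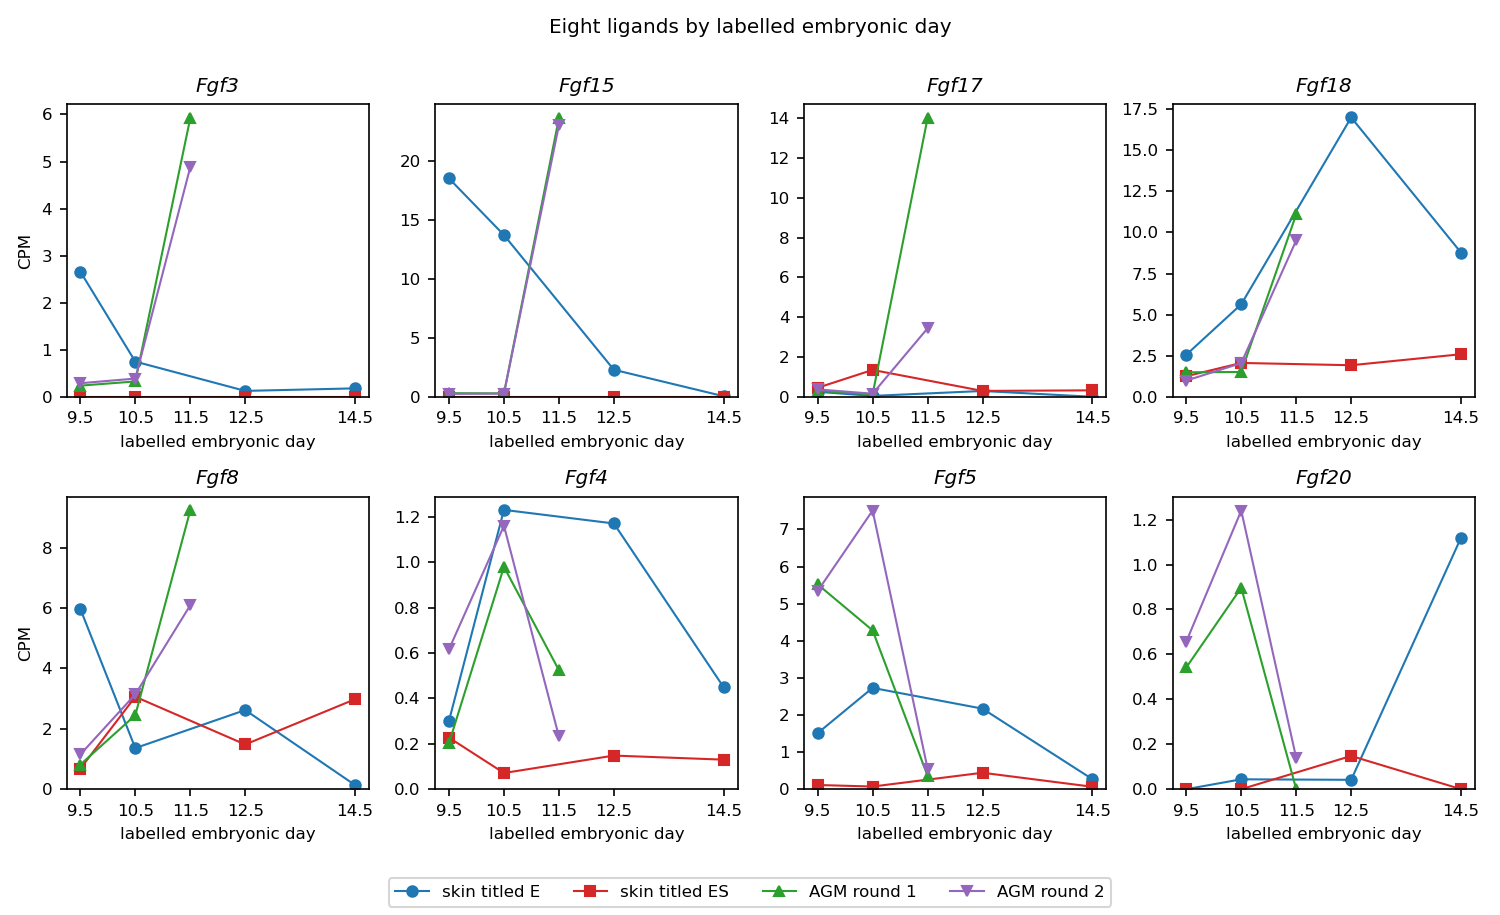
CPM of 8 ligands against the labelled embryonic day, with 1 point per library and lines joining libraries of 1 set. In the AGM libraries labelled E11.5, Fgf3, Fgf15, Fgf17, Fgf18 and Fgf8 are above, and Fgf4, Fgf5 and Fgf20 below, the AGM libraries labelled E10.5; Fgf15 in skin titled E goes from 18.5 CPM at E9.5 to 0.0448 CPM at E14.5.

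The intracellular factors, which stay inside the cell and are known as partners of sodium channels and microtubules, went in different directions in AGM. Fgf11 stood at 8.90 and 8.05 CPM under the label E9.5, 4.2 and 3.76 CPM under E10.5 and 1.13 and 0.743 CPM under E11.5, lower at each later label. Fgf13 and Fgf14 were higher under the label E11.5 than under E10.5, by 1.0 ± 0.14 and 1.96 ± 0.32 on the log2 scale (edgeR adjusted p = 0.00193 and 0.00359). Fgf12 did not pass the test (-0.68 ± 0.48, adjusted p = 0.331).

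Among the receptors Fgfr3 alone was called without the block, from 21.8 and 22.1 CPM under the label E10.5 to 55.2 and 52.5 CPM under the label E11.5 (log2 change 1.39 ± 0.11, edgeR adjusted p = 0.000135). The log2 changes of Fgfr1, Fgfr2 and Fgfr4 were -0.20 ± 0.12, 0.24 ± 0.08 and 0.13 ± 0.25, with adjusted p of 0.275, 0.057 and 0.751. The feedback genes moved little beside the ligands. Dusp6 fell from 132 and 140 CPM to 96.3 and 88.4 CPM (-0.47 ± 0.11, edgeR adjusted p = 0.0188), a call that was lost, with an adjusted p of 0.0568 to 0.102, when any of 3 libraries was left out (either library labelled E10.5, or the second of those labelled E11.5). Spry3 fell by 1.01 ± 0.16 on the log2 scale (adjusted p = 0.00326), and Spry1, Spry2, Spry4, Etv4 and Etv5 lay between -0.33 and 0.56 with adjusted p of 0.126 to 0.538.

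Of the other pathway genes, 3 of 22 tested binding proteins, co-receptors and heparan sulphate genes rose and 8 fell, as did 4 and 2 of 19 adaptors and kinases and 3 and 3 of 14 further feedback genes, beside 11.8% of all tested genes higher and 15.4% lower. Fgfbp3, a carrier that frees ligands from the matrix, rose by 2.67 ± 0.20 on the log2 scale (5.33 to 31.8 CPM, edgeR adjusted p = 0.000109), and the immediate early gene Egr1 fell from 95.5 to 12.0 CPM (-2.90 ± 0.16).

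**Figure D3:**
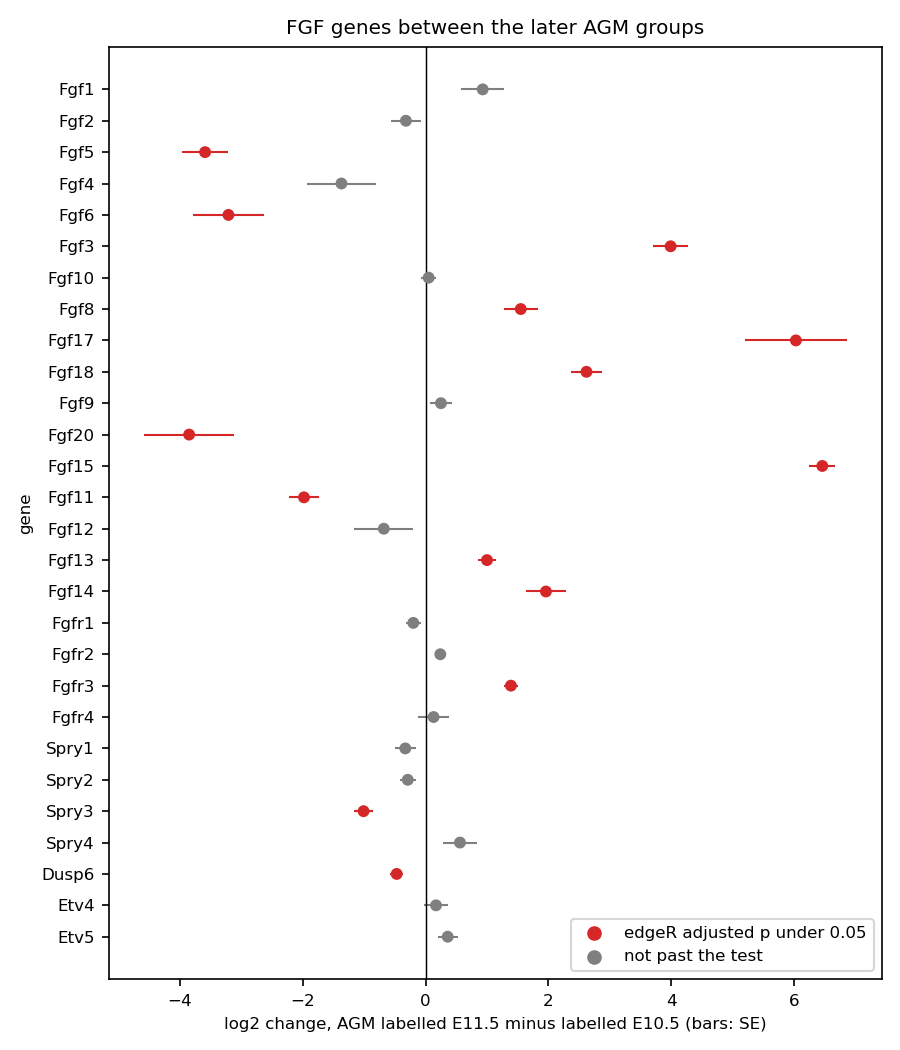
Log2 change of the 28 tested members between AGM libraries labelled E11.5 and E10.5, with bars for the SE and red points for edgeR adjusted p under 0.05. Ligands spread from -3.85 (Fgf20) to 6.46 (Fgf15), while receptors and feedback genes lie between -1.01 and 1.39.

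Between the AGM libraries labelled E10.5 and E9.5 only 2 of 28 tested members passed, with 2.59% of all tested genes called (0.874% higher and 1.72% lower). Fgf8 stood at 0.813 and 1.15 CPM under the label E9.5 and 2.45 and 3.14 CPM under the label E10.5 (log2 change 1.57 ± 0.32, edgeR adjusted p = 0.0493). Fgf11 was lower by a log2 change of -1.04 ± 0.21 (adjusted p = 0.0453). With the round as a block, 8 were called, where 24.1% of all tested genes were: Fgf4, Fgf6, Dusp6, Etv4 and Etv5 were higher and Fgfr2 was lower besides, with Dusp6 at 92.8 and 111 CPM and then 132 and 140 CPM (0.47, adjusted p = 0.000953). Both calls without the block were lost when any of the 4 libraries compared was left out (adjusted p = 0.0648 to 0.322), and that of Fgf8 also with median-of-ratios size factors (0.0507) and on library totals without a scaling factor (0.0501), which left 0 members higher and 2 lower.

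In skin titled E the widest change lay between E10.5 and E12.5, where 20 of 31 tested members passed, 17 higher and 3 lower, with 30.1% of all tested genes called (17.4% higher and 12.7% lower). The median log2 change of the members was 1.18, or 1.06 with genes at 0 counts set to their bound, and 0.00 over all genes tested. Each skin library stands alone here and is taken to vary as the AGM pairs do, and no skin replicate stands behind these calls. Limb bud markers reached 1420 CPM in this E12.5 library, with Tbx5 at 179 CPM against 0.044 to 19.7 CPM in the other skin libraries titled E, and muscle progenitor markers summed to 253 CPM at E10.5 and 308 CPM at E12.5, where Myod1 went from 3.43 to 83.1 CPM and Myf5 from 12.0 to 8.58 CPM. Their part in the members' rise was not tested.

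Fgf10, the mesenchymal ligand of limb, lung and skin appendages, stood at 15, 3.30, 21.2 and 21.1 CPM over the 4 days. E10.5 was the low point, with a log2 change of -2.18 ± 0.20 into it and 2.63 ± 0.20 out of it (edgeR adjusted p = 0.0015 and 6.7e-05). Fgf9, a ligand known from lung and gonad, had its peak at E12.5, with 2.66, 1.67, 13.9 and 3.98 CPM. It rose by 3.0 ± 0.27 and then fell by 1.67 on the log2 scale (adjusted p = 0.000156 and 0.00165). Fgf18 also peaked at E12.5, at 2.56, 5.63, 17.0 and 8.77 CPM. Its rise of 1.55 ± 0.30 from E10.5 passed (adjusted p = 0.00597), and its change of -0.83 ± 0.29 after E12.5 did not (adjusted p = 0.0687), though it did with the AGM round as a block (adjusted p = 0.00435). Per kb of exon, Fgf18 was the most abundant secreted ligand in skin titled E at E10.5, E12.5 and E14.5, with 4.75, 14.4 and 7.39 CPM per kb, which was 31.7%, 41.5% and 31.1% of the ligands' sum.

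Fgf2, a ligand without a signal peptide, rose from 1.81 and 2.73 CPM to 24.3 CPM at E12.5 (log2 change from E10.5 3.10 ± 0.30, edgeR adjusted p = 0.000203) and stood at 14.9 CPM at E14.5. Fgf7, the keratinocyte growth factor of mesenchyme, had 3 reads at E10.5 and 218 at E12.5, a ratio of 68.8 (95% counting interval 23.2 to 336), and 11.2 CPM at E14.5. Fgf16 had 0 and then 18 reads, at least 5.68-fold higher against a floor of 3 reads. Fgf1 rose by 2.40 ± 0.52 (adjusted p = 0.00957, and 0.0606 by DESeq2). Fgf15 and Fgf3 moved against these ligands. Fgf3 had 17 reads at E10.5 and 3 at E12.5, a ratio of 5.99 (95% counting interval 1.73 to 31.9), and DESeq2 did not call it (adjusted p = 0.0965). Fgf15 fell from 18.5 and 13.7 CPM at E9.5 and E10.5 to 2.29 CPM at E12.5 (-2.63 ± 0.23, adjusted p = 0.000131) and to 1 read at E14.5. Pax6 ran through the same libraries at 118, 111, 3.29 and 0.0448 CPM and Sox1 at 91.8, 81.9, 3.0 and 0.0448 CPM, and their part in the fall was not tested.

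Of the intracellular factors, Fgf11, Fgf12 and Fgf13 rose between E10.5 and E12.5, from 2.64, 1.94 and 23.6 CPM to 19.4, 9.29 and 51.0 CPM (log2 change 2.82 ± 0.28, 2.21 ± 0.50 and 1.06 ± 0.18, edgeR adjusted p = 0.000242, 0.0122 and 0.00303). Fgf14 did not pass (-0.50 ± 0.36, adjusted p = 0.335). The neuron markers Dcx and Tubb3 stood at 29.9, 349, 299 and 54.7 CPM and at 87.3, 520, 218 and 6.18 CPM over the 4 days. The neuron list summed to 370, 2340, 1340 and 136 CPM, and the part of neurons in these changes was not tested.

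Among the receptors Fgfr1, known from mesenchyme, rose from 180 to 377 CPM between E10.5 and E12.5 (log2 change 1.02 ± 0.17, edgeR adjusted p = 0.00272), and Fgfr4, known from embryonic muscle, from 4.62 to 27.7 CPM (2.53 ± 0.35, adjusted p = 0.00114). Fgfr3 peaked at E10.5, with 97.7, 156, 50.2 and 47.3 CPM over the 4 days (0.68 ± 0.14 and then -1.69 ± 0.15, adjusted p = 0.03 and 0.000134). Fgfr2 held at 159, 164 and 158 CPM and then rose to 303 CPM at E14.5 (1.07 ± 0.12, adjusted p = 0.000393). Epidermal markers summed to 3690 CPM in that E14.5 library and to 45.7 CPM in the lowest skin library titled E, and Trp63, the master factor of stratified epithelium, stood at 10.6, 9.11, 33.4 and 248 CPM. Whether epidermal cells account for the Fgfr2 rise was not tested.

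**Figure D4:**
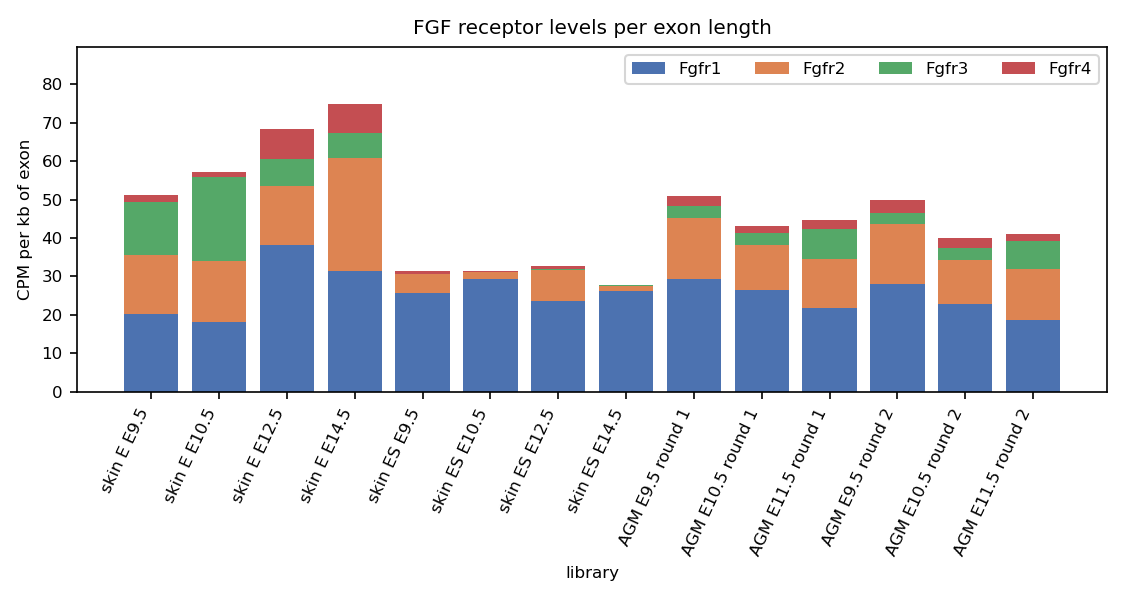
CPM per kb of exon of the 4 receptors, stacked, in each of the 14 libraries. The stack is 27.8 to 32.7 CPM per kb in skin titled ES, with Fgfr1 at 71.7% to 94.5% of it, and 39.9 to 74.7 CPM per kb in the other libraries.

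Sprouty genes, which block receptor signalling upstream of Ras or Raf, rose together in skin titled E between E10.5 and E12.5. Spry1, Spry2, Spry3 and Spry4 went from 11.8, 22.4, 4.84 and 7.70 CPM to 51.2, 78.8, 9.29 and 47.6 CPM, with log2 changes of 2.07 ± 0.23, 1.76 ± 0.17, 0.89 ± 0.23 and 2.58 ± 0.40, all called by edgeR (adjusted p = 0.000447, 0.000223, 0.0196 and 0.00206). Spry3 was not called by DESeq2 (adjusted p = 0.17). Etv5 also rose, by 1.18 ± 0.23 (19.8 to 46.5 CPM). Etv4 went from 14.1 to 24.1 CPM and did not pass (0.73 ± 0.27, adjusted p = 0.0762), though it did with the AGM round as a block (0.0125). Dusp6 did not follow them, at 103, 94.2, 99.5 and 88.0 CPM over the 4 days, with log2 changes of -0.13 ± 0.16, 0.03 ± 0.16 and -0.05 ± 0.16. Spry1 rose again to 101 CPM at E14.5 (1.11 ± 0.22, adjusted p = 0.00636) and Spry3 fell to 2.33 CPM (-1.86 ± 0.24, adjusted p = 0.000904).

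Of the co-receptors and matrix partners, 14 of 23 tested genes rose and 1 fell from E10.5 to E12.5, with a median log2 change of 0.99, where 17.4% of all tested genes were higher and 12.7% lower. They included Sulf1, a heparan sulphate sulphatase, from 57.7 to 302 CPM, and the glypicans Gpc4 (21 to 90.4 CPM) and Gpc3 (355 to 1330 CPM), while Fgfbp3 fell by 2.24 ± 0.25 on the log2 scale. Of 19 adaptors and kinases 2 rose and 2 fell, and of 14 further feedback genes 3 rose and 4 fell, among them Dusp5 (-2.23 ± 0.24) and Dusp4 (-1.39 ± 0.23).

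Between E9.5 and E10.5 in skin titled E, 5 of 31 tested members passed, 2 higher and 3 lower, with 6.43% of all tested genes called (4.64% higher and 1.79% lower). Besides Fgf10 and Fgfr3 above, Fgf8 fell from 5.97 to 1.36 CPM (log2 change -2.12 ± 0.43, edgeR adjusted p = 0.024), Fgf3 fell from 2.66 to 0.748 CPM (-1.82 ± 0.41, adjusted p = 0.0389) and Fgf11 rose from 0.853 to 2.64 CPM (1.63 ± 0.37, adjusted p = 0.0386). With the AGM round as a block, 9 were called, where 19.4% of all tested genes were, adding Fgf6, Fgf13, Fgf18 and Spry1. Without either AGM library labelled E10.5 the count was 2, and without either labelled E11.5 it was 3. The calls lost there were those of Fgf3, Fgfr3 and, without a library labelled E10.5, Fgf11 (adjusted p = 0.0525 to 0.0631), and DESeq2 called neither Fgf3 (0.311) nor Fgf11 (0.0742). From E12.5 to E14.5, 11 of 31 passed, 4 higher and 7 lower, with 27.5% of all tested genes called (14.3% higher and 13.2% lower) and a median log2 change of -0.16. Without a scaling factor the split was 4 higher and 9 lower.

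Fgf5, Fgf8, Fgf15, Fgf20 and Fgf21, ligands of low level, were 5 of the 11 members called at that last step. Fgf20, an early hair placode ligand, had 1 read at E12.5 and 25 at E14.5, a ratio of 26.9 (95% counting interval 4.40 to 1100). The hair placode and dermal condensate markers summed to 135 CPM at E12.5 and 85.3 CPM at E14.5. The defining genes of that list, Edar and Shh, went from 2.37 to 20.7 CPM and from 0.333 to 2.82 CPM, while Lhx2 went from 43.7 to 1.43 CPM. The part of these cells in the Fgf20 difference was not tested. Fgf21, an endocrine ligand, went from 2 to 34 reads (18.3, interval 4.68 to 157). It entered the fit only through the E14.5 library, with 0 to 2 reads in the other libraries of that fit. Fgf8 went from 63 reads to 3 (19.5-fold lower, interval 6.39 to 97.3), and Fgf5 fell by 2.86 ± 0.62 on the log2 scale (edgeR adjusted p = 0.0103). Fgf13 and Fgf14 fell by 1.02 ± 0.18 and 1.32 ± 0.40. DESeq2 called neither Fgf20 (adjusted p = 0.0917) nor Fgf14 (0.366), and Fgf14 was also lost without either AGM library labelled E10.5 (0.0618 and 0.0619). Of the other pathway genes Fgfbp1, a carrier of FGFs, rose from 1.62 to 101 CPM (6.09 ± 0.48, adjusted p = 7.62e-05).

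AGM and skin titled E were compared at the labels they share. At E9.5, 13 of 31 tested members passed, 6 higher and 7 lower in AGM, with 33.9% of all tested genes called (18% higher and 15.9% lower). At E10.5, 14 of 31 passed, 8 higher and 6 lower, with 24% called (11.7% higher and 12.2% lower). Tissue and sequencing project coincide here. Fgf13, Fgf14, Fgf15, Fgf18 and Fgfr3 were lower in AGM at both labels, besides Fgf3 and Fgf8 at E9.5 and Fgfr2 at E10.5. Fgf20 was higher in AGM at both labels, joined by Fgf2, Fgf5, Fgf11, Fgfr1 and Spry3 at E9.5 and by Fgf9, Fgf10 and the targets below at E10.5. Fgf20 had 32 reads in AGM and 0 in skin at E9.5, at least 3.95-fold higher against a floor of 3 reads. At E10.5 it had 54 reads and 1 read (ratio 24.4, 95% counting interval 4.19 to 980). DESeq2 did not call Fgf2, Fgf14, Fgf18 and Fgf20 at E9.5, nor Fgf20 and Spry2 at E10.5. Fgfr1 at E9.5 was not called with median-of-ratios size factors. Leaving out 1 AGM library lost the calls of Fgf2, Fgf18, Fgf20 and Fgfr1 at E9.5 (adjusted p = 0.0501 to 0.117) and of Fgf20 and Fgfr2 at E10.5 (0.0591 to 0.0958), in most cases a library of the label compared. Fgf15 stood at 0.305 and 0.247 CPM against 18.5 and at 0.286 and 0.271 CPM against 13.7 (log2 difference -6.08 ± 0.23 and -5.58 ± 0.24, edgeR adjusted p = 2.46e-06 and 2.9e-06). Fgfr3 stood at 23.8 and 20.9 CPM against 97.7 and at 21.8 and 22.1 CPM against 156 (-2.18 ± 0.12 and -2.82 ± 0.12, adjusted p = 1.69e-05 and 3.31e-06). Fgf13 stood at 10.2 and 8.92 CPM against 16.3 and at 6.85 and 7.67 CPM against 23.6 (-0.82 ± 0.16 and -1.69 ± 0.16). Pax6 and Sox1 ran from 81.9 to 118 CPM in those skin libraries and from 0.0677 to 2.29 CPM in AGM, and their part in the difference was not tested. At the label E10.5, targets and feedback genes were higher in AGM: Etv5 at 52.3 and 45.7 CPM against 19.8 (1.32 ± 0.21), Etv4 at 33.5 and 29.7 CPM against 14.1 (1.18 ± 0.24) and Spry1 at 35.9 and 32.2 CPM against 11.8 (1.54 ± 0.21), with adjusted p of 0.00246, 0.00933 and 0.00125. Dusp6 and Spry2 also passed there, by 0.54 ± 0.14 and 0.55 ± 0.15, and both lost the call without either AGM library labelled E10.5 (adjusted p = 0.0567 to 0.124).

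The change from E9.5 to E10.5 was then compared between the tissues, as the AGM change minus the change in skin titled E. Of 31 tested members 3 passed, 2 higher and 1 lower, with 7.67% of all tested genes called (2.63% higher and 5.04% lower). Fgf8 rose in AGM from the label E9.5 to the label E10.5 and fell in skin, a difference of 3.70 ± 0.53 on the log2 scale (edgeR adjusted p = 0.00703). For Fgf10 the difference was 2.13 ± 0.23 (adjusted p = 0.00305), with AGM at 13.9, 14.3, 13.1 and 12.8 CPM (E9.5 and then E10.5) beside the fall from 15 to 3.30 CPM in skin. For Fgf11 it was -2.65 ± 0.41 (adjusted p = 0.00887). The skin change rests on 1 library per day. The direction of the AGM change rests on the age labels, and whether these are right was not tested. With the AGM round as a block 14 members passed, where 25.8% of all tested genes did. Those added were Fgf3, Fgf9, Spry1, Spry4, Dusp6, Etv4 and Etv5 with positive differences (0.61 to 2.34) and Fgf12, Fgf13, Fgfr2 and Fgfr3 with negative ones (-1.89 to -0.41).

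Skin titled ES differed from skin titled E at the same 4 days by a different set of ligands, receptors and feedback genes. Fgf7 and Fgf2 were the leading ligands in ES, Fgfr1 was the most abundant receptor per kb of exon, and Spry2, Spry4, Dusp6, Etv4 and Etv5 were higher while Spry1 was lower. Of 24 tested members 15 passed, 8 higher and 7 lower, which is 62.5% where 58.8% of all tested genes were called (29.5% higher and 29.3% lower), so members were called about as often as genes at large. The median log2 difference of the members was 0.49, and -0.01 over all genes tested. Library totals alone moved the median of all genes to -0.35 and left 7 members higher and 7 lower, with Etv5 no longer past the test (adjusted p = 0.0562).

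Fgf7 stood at 178, 151, 171 and 213 CPM over the 4 days in skin titled ES and at 0.0502, 0.132, 9.08 and 11.2 CPM in skin titled E. Each ES library was above each E library, and the log2 difference was 6.82 ± 1.43 (SE, n = 4 per title, 1 library per day, edgeR adjusted p = 0.0083). No day has a replicate within a title, so SE and p between titles measure how the difference varies from day to day. Per kb of exon Fgf7 made up 71.8% to 77.4% of the secreted ligands in the ES libraries, at 46.3 to 65.5 CPM per kb against 6.58 to 8.31 for Fgf2, the next. Fgf2 stood at 56.3, 47.1, 44.6 and 45.5 CPM against 1.81, 2.73, 24.3 and 14.9 CPM (3.16 ± 0.80, adjusted p = 0.0163), again without overlap. Fgf16 was higher as well, at 1.17 to 5.32 CPM against 0 to 1.12 CPM (3.35 ± 1.09, adjusted p = 0.039), a call lost when any of the 6 libraries of E9.5, E10.5 or E12.5 was left out (adjusted p = 0.0731 to 0.124). The call of Fgf2 was lost without the ES library of E10.5 (adjusted p = 0.054). Fgf7 and Fgf16 needed the ES libraries, where they are high, to pass the low-count filter, and Fgf6 and Fgf9 below passed it through title E. Calls of these members are therefore not independent of the filter. The share of all genes without overlap between the titles was not counted.

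Several other ligands of skin titled E were at or near 0 in skin titled ES. Fgf15 had 735 reads in the 4 E libraries and 0 in the 4 ES libraries, at least 124-fold lower against a floor of 3 reads over the group, and Fgf3 had 77 and 0 reads, at least 13-fold lower. Fgf6 had 380 reads and 1 read, a ratio of 192 (95% counting interval 34.3 to 7620), and the muscle genes Myod1 and Myf5 were at 0 in all ES libraries. Fgf9 stood at 0 to 0.356 CPM against 1.67 to 13.9 CPM (-3.57 ± 0.90, adjusted p = 0.0158), and Fgf18 at 1.25 to 2.59 CPM against 2.56 to 17.0 CPM (-1.51 ± 0.44, adjusted p = 0.0267, and 0.0634 to 0.0762 when any library of E10.5 or E12.5 was left out). Fgf4, Fgf5 and Fgf17 did not pass the low-count filter, at 0.0712 to 0.227, 0.0648 to 0.443 and 0.295 to 1.35 CPM against 0.301 to 1.23, 0.269 to 2.73 and 0 to 0.292 CPM. Fgf17 was thus higher in ES, on 4 of 4 days, unlike Fgf4 and Fgf5. Fgf10 did not pass, at 20.1, 20.6, 18.8 and 29.3 CPM against 15, 3.30, 21.2 and 21.1 CPM (1.12 ± 0.48, adjusted p = 0.0902).

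The receptors split in the ES libraries. Fgfr1 did not pass, at 255, 289, 232 and 259 CPM against 199, 180, 377 and 309 CPM (log2 difference 0.36 ± 0.26, edgeR adjusted p = 0.278). Fgfr3, a receptor of neural progenitors and cartilage, was at 1.36, 1.14, 1.18 and 1.23 CPM against 97.7, 156, 50.2 and 47.3 CPM (-5.67 ± 0.40, adjusted p = 0.000324). Fgfr2, whose epithelial form binds Fgf7 and Fgf10, was at 49.2, 19.2, 84.8 and 13.1 CPM against 159, 164, 158 and 303 CPM (-2.19 ± 0.66, adjusted p = 0.0303), and Fgfr4 at 0.324 to 3.10 CPM against 4.62 to 27.7 CPM (-2.86 ± 0.81, adjusted p = 0.0243). No ES library reached an E library for these 3. The share of all genes without overlap was not counted, and 58.8% of all tested genes were called between the titles. Per kb of exon, Fgfr1 thus made up 82.2%, 92.8%, 71.7% and 94.5% of receptor transcripts in ES, against 31.8% to 55.9% in skin titled E and 45.3% to 61.7% in AGM. Leaving out either title's library of E10.5 lost the call of Fgfr2 (adjusted p = 0.0892 and 0.0984), and leaving out either of E12.5, or the ES library of E10.5, that of Fgfr4 (0.051 to 0.0804). Epidermal and endothelial markers were low in the same libraries, with Trp63 at 0.356 to 0.648 CPM, and their part in the receptor differences was not tested.

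Dusp6 stood at 170, 174, 208 and 209 CPM in skin titled ES and 103, 94.2, 99.5 and 88.0 CPM in skin titled E (log2 difference 1.31 ± 0.16, edgeR adjusted p = 0.00137). Etv4 stood at 53.7, 50.8, 60.0 and 36.3 CPM against 17.2, 14.1, 24.1 and 12.9 CPM (1.91 ± 0.18, adjusted p = 0.000627). Spry4 stood at 53.4, 67.6, 98.2 and 117 CPM against 10.3, 7.70, 47.6 and 35.4 CPM (2.39 ± 0.36, adjusted p = 0.00254). All 3 were higher in ES on 4 of 4 days and did not overlap. The share of all genes without overlap was not counted, and 58.8% of all tested genes were called between the titles. Spry2 (1.22 ± 0.20) and Etv5 (0.98 ± 0.23) were higher on 4 of 4 days too, with overlap between the titles. Etv5 lost its call without any of 3 libraries (the E library of E10.5 and the ES libraries of E9.5 and E10.5, adjusted p = 0.0508 to 0.0602), and Spry2 without day in the fit (0.0815). Spry1 was lower on 4 of 4 days and did not overlap, at 4.19, 5.55, 8.12 and 6.28 CPM against 19.7, 11.8, 51.2 and 101 CPM (-2.16 ± 0.50, adjusted p = 0.0121, and 0.0505 without the ES library of E12.5). The Sprouty genes therefore differed in direction between the titles, and Spry3 did not pass (-0.07 ± 0.39).

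**Figure D5:**
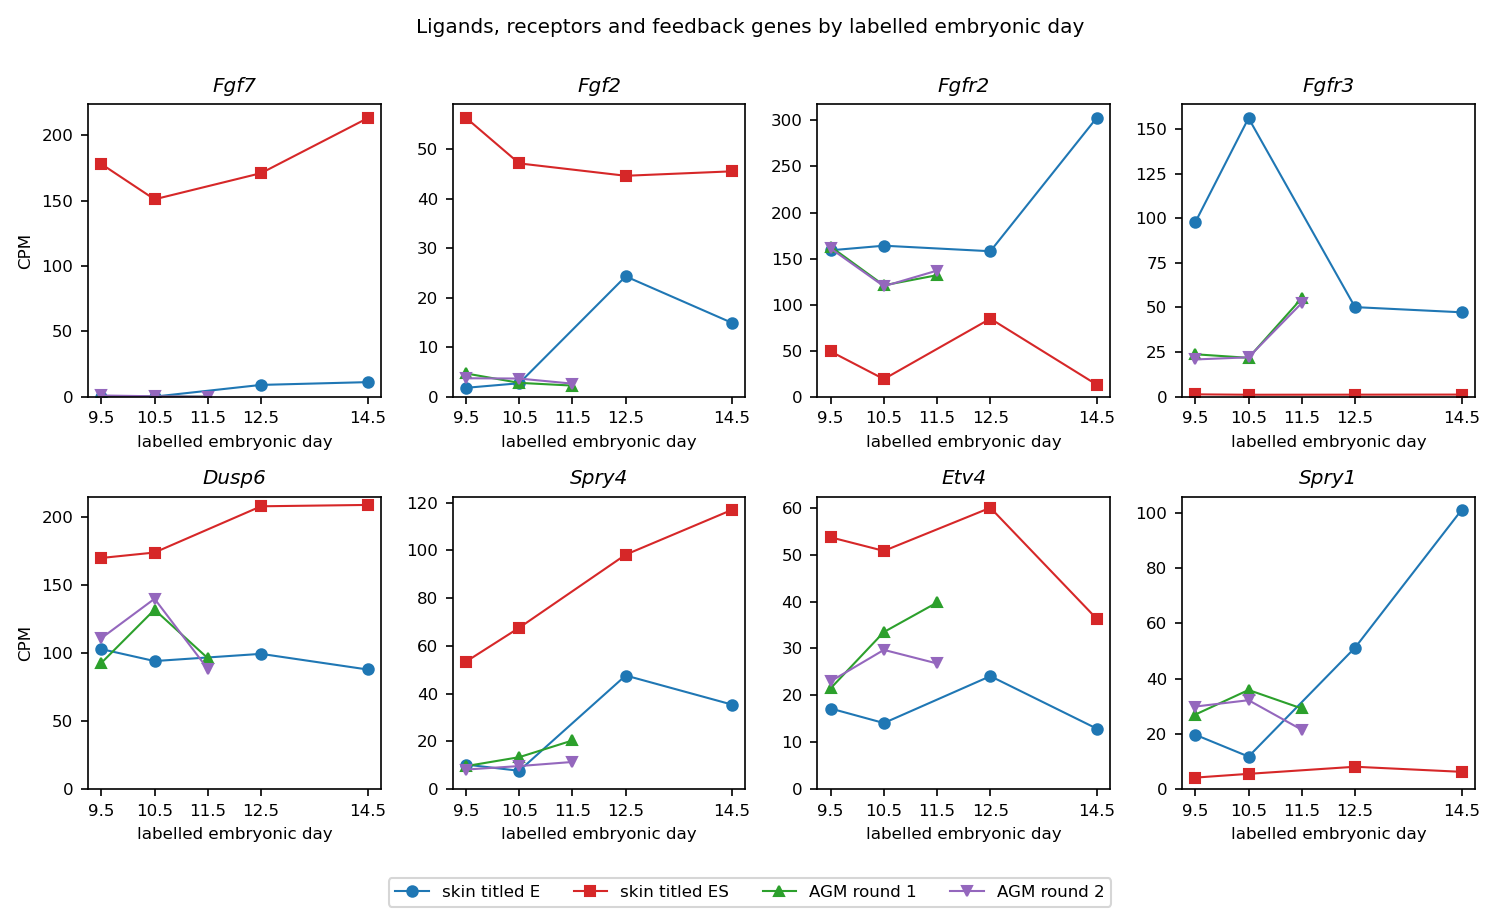
CPM of 8 members against the labelled embryonic day, with 1 point per library and lines joining libraries of 1 set. The ES points (red squares) are above all skin E points for Fgf7, Fgf2, Dusp6, Spry4 and Etv4 and below them for Fgfr2, Fgfr3 and Spry1.

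Of 14 further feedback and target genes, 8 were higher and 4 lower in ES, with a median log2 difference of 1.34, where 29.5% of all tested genes were higher and 29.3% lower. Fosl1, Egr1 and Etv1 led the rise, from 2.05 to 49.6 CPM, from 45.1 to 265 CPM and from 11.7 to 114 CPM on average, and Dusp9 fell from 44.3 to 6.07 CPM. Of 20 tested co-receptor and matrix genes 8 were higher and 5 lower, with Gpc3 falling by 4.64 ± 0.33 on the log2 scale, and of 19 adaptors and kinases 3 were higher and 5 lower, again beside 58.8% of all tested genes called.

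Fgf22, an epidermal and neural ligand, and Fgf23, a hormone of bone, were scarce throughout, at 0 to 0.411 CPM and 0 to 0.271 CPM, and were tested in no comparison. Fgf7, Fgf16 and Fgf21 had too few reads for the AGM fit as well, and 9 members did not pass the filter for the comparison of titles. Fgf15 was among these despite 735 reads in skin titled E, since the filter counts libraries and only 1 of the reads was at E14.5. Fgf21 stayed at or under 0.113 CPM outside skin titled E at E14.5. Counting may have mixed neighbours for some members: annotated genes on the opposite strand overlap Fgf2 (Nudt6), Fgf7 (Fam227b) and Fgfr1, the annotated span of Fgfr2 overlaps 69 genes, and the sources used here do not say whether counting used strand.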

How the data were processed

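The submitters' processing notes list featureCounts 1.6.0, Trimmomatic 0.36, DESeq2 1.20.0 and STAR 2.5.0a with build GRCm38 (mm10), and no settings. The authors deposited a table of raw counts of reads per gene (53465 genes, 14 libraries) with gene coordinates; 30 of the 33 members have the same coordinates in GENCODE M21. CPM is a count over the library's total, and CPM per kb divides by the union of exons. Overlap between groups of libraries was read for members only, so its share over all genes is not given.

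The test was the quasi-likelihood test of edgeR 4.0.16 (R 4.3.3, filterByExpr, TMM, glmQLFit, glmQLFTest), with Benjamini-Hochberg adjustment over all tested genes and calls at adjusted p under 0.05. AGM ages used the 6 AGM libraries (17613 genes), skin ages and tissues the 10 libraries of AGM and skin titled E (19945 genes), and titles the 8 skin libraries with day as a term (16588 genes). Each fit has 3 residual degrees of freedom, and in the 10-library fit all come from AGM pairs. The filter asks for enough reads in as many libraries as the smallest group has, so a gene can enter through a single group. Entry came only through the label E11.5 for Fgf3, Fgf15 and Fgf17 in AGM. It came only through skin titled E at E12.5 and E14.5 for Fgf16 and at E14.5 for Fgf21, and through title E for Fgf6 and Fgf9 between titles. Between titles Fgf7 and Fgf16 needed the ES libraries to enter. In skin titled E at E9.5 and E10.5 they stood at 0.0502 and 0.132 CPM and at 0.151 and 0 CPM. Calls of such members are not independent of the filter. A floor of 3 reads stands for 0, and counting intervals cover counting error only. On simulated data with 4-fold changes these fits called 91.6%, 67.3% and 37.9% of changed genes (AGM labelled E11.5 against E10.5, skin E12.5 against E10.5, titles), and with 2-fold changes 64.0%, 35.4% and 0.0%.

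Replicate numbers of AGM mark sequencing rounds, per the labels, and differences between rounds correlated between ages (r = 0.605, 0.429 and 0.523 over 15747 genes), so the round pairs the libraries. No 2 libraries held identical values. Alternatives were the round as a block, median-of-ratios size factors, DESeq2 1.42.0, no low-count filter, other sets of libraries and single libraries left out. Those left out were skin libraries between titles and AGM libraries only in the other fits. Library totals without TMM and the test of the difference between tissues were chosen after seeing the data. Members, pathway lists (56 genes in 3 lists) and marker lists (12) were chosen with earlier results of these data known. Of the pathway lists, at most 3 called genes with 5 CPM or more are named per direction; of the marker lists, defining genes only. Lists not summed above over all libraries gave the following summed CPM in skin titled E, in skin titled ES and in AGM. Neurons ran from 136 to 2340, 114 to 183 and 114 to 448. Skeletal muscle progenitors ran from 129 to 308, 0 to 0.498 and 57.3 to 132. Hair placode and dermal condensate ran from 85.3 to 332, 22.5 to 69.6 and 91.1 to 159, and mesonephros and coelomic epithelium from 65.2 to 148, 2.81 to 7.48 and 58.1 to 261.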

Additional observations from a re-analysis of the deposited data

Results flagged for a closer look

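For 3 members the change from E9.5 to E10.5 differed between AGM and skin titled E by edgeR's test of the difference itself, with Benjamini-Hochberg adjustment over all genes and 7.67% of all tested genes called. The AGM change minus the skin change was 3.70 on the log2 scale for Fgf8, 2.13 for Fgf10 and -2.65 for Fgf11. Both AGM rounds moved the same way for Fgf8 (up) and Fgf11 (down), and each was set against the same single skin change. With the AGM round as a block 14 members passed, these 3 included, where 25.8% of all tested genes did. Tissue and sequencing project cannot be told apart in these differences. The direction of each AGM change follows the age labels as given, and whether these are right was not tested.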

How the results depend on the processing

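Outside the fit that pools both skin titles, single called members kept their direction and call in 1035 of 1111 checks, and 0 reversed. With that fit counted, 7 of 1189 reversed. In the skin steps only AGM libraries were left out, and the skin log2 changes do not rest on them. Those checks could therefore hardly turn a direction. With the replicate block (AGM round), counts rose from 2 to 8 (AGM labelled E10.5 against E9.5), from 14 to 22 (E11.5 against E10.5), from 5 to 9 (skin titled E, E10.5 against E9.5) and from 3 to 14 (AGM change minus skin change), and stayed within 1.5 times in the 4 other comparisons it could serve; the block removed no member's call. For AGM E10.5 against E9.5, median-of-ratios size factors gave 1, DESeq2 5 and no low-count filter 7; for skin E10.5 against E9.5, DESeq2 gave 3 and no filter 8, and for the AGM change minus the skin change no filter gave 10. Treating titles E and ES of a day as replicates of 1 group gave 0 called members in each of the 7 comparisons it could serve, with a coefficient of variation of 81.5% against 12.1% in the 10-library fit. Under that setting the log2 change reversed for Fgf11 in skin E10.5 against E9.5 (-0.01), for Fgf2 between AGM and skin at E9.5 (-3.07) and, at the label E10.5, for Etv4 (-0.26), Dusp6 (-0.16), Fgf10 (-0.12), Spry2 (-0.49) and Fgfr2 (0.39). Leaving out each library in turn gave 0 to 2 and 13 to 15 called members in the AGM comparisons, 2 to 6, 20 to 21 and 10 to 14 in the skin steps, 11 to 14 between the tissues at either label, 11 to 17 between titles and 3 to 4 for the AGM change minus the skin change. For settings other than the block, the share of all genes called is not given here, so these counts cannot be set against genes at large. Beyond these constructions the cause was not tested. Genes under 1 CPM are limited by depth: 3 reads equal 0.102 to 0.443 CPM over the 14 libraries.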
